A study of Homo sapiens with 8 samples.

Results

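The regions described here are the binding sites of polypyrimidine tract binding protein (PTB) on human chromosomes 4, 13 and 18. They were taken from 5 deposited peak lists as all peaks on these chromosomes, and peaks of 1 list and strand with at most 20 nt between them were merged into a site. This gave 15802 sites of 206508 in all: 4040 of 70110 in the PTB UVA list, 7474 of 80531 in the PTB UVC list, 3996 of 52446 in the PTB iCLIP list, 201 of 2341 in the PTB list without UV and 91 of 1080 in the YFP list. The 3 chromosomes were chosen by their ratio of UVA to UVC sites, the lowest of 23 chromosomes. That ratio, and every value below that depends on the number of UVA or UVC sites on these chromosomes, is therefore given as a description.

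The study used crosslinking and immunoprecipitation (CLIP), which maps where a protein touches RNA in living cells, in a gel-omitted form that captures the protein by a HaloTag. It was run in 293T, a line derived from human embryonic kidney. In 3 groups the cells carried a Halo-PTB transgene and were crosslinked with UVA, crosslinked with UVC or left without UV, and in the fourth they carried Halo-YFP, a yellow fluorescent protein that is not an RNA-binding protein, and were crosslinked with UVC. Each group has 2 samples and 1 pooled list, and the iCLIP list is the submitters' own re-analysis, with the same methods, of all samples of an earlier PTB study, whose cells the series text does not name. In all 4 groups the captured protein was a tagged transgene product in cells kept under puromycin, and the labels do not say whether a line was 1 clone. Read depth per sample is unknown, no spread between replicates can be given, and no test between conditions was possible. All intervals are 95% intervals for counting error and treat sites as independent, which neighbouring sites of a transcript are not.

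PTB is an RNA-binding protein of the hnRNP class that carries several RNA recognition motifs and binds runs of pyrimidines rich in U and C. It is best known as a repressor of alternative exons, which it reaches largely through introns of nuclear precursor RNA, and it also binds mature mRNA in the 3′ untranslated region. Long introns therefore offer PTB much more RNA than the spliced message does. Genes on gene-poor chromosomes tend to be long and rich in intron.

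The label of gene-poor chromosomes was checked against the RefSeq gene table of GRCh38, of which only gene numbers and gene lengths were used. Chromosomes 13, 18 and 4 had the lowest numbers of protein-coding genes per Mb of 23 chromosomes, at 2.94, 3.46 and 4.03. The span in Mb was taken up to the last deposited peak. Together they held 1377 coding genes at 3.59 per Mb, against 7.02 per Mb on the other 20. The median coding gene was 45.4 kb long on chromosomes 4, 13 and 18 and 23.2 kb elsewhere, and 27.3% of their coding genes were at least 100 kb long, against 2975 of 18593 coding genes elsewhere. The chromosomes were thus both gene-poor and rich in long genes. No annotation of hg19, the build of the peaks, was used here, so regions are named by position and strand and not by gene.

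The 3 chromosomes held 5.76% of all UVA sites (interval 5.59 to 5.94), 9.28% of all UVC sites (9.08 to 9.48) and 7.62% of all iCLIP sites (7.39 to 7.85). The control lists lay between these values, with 8.59% of the sites without UV (7.48 to 9.79) and 8.43% of the YFP sites (6.84 to 10.2). The UVA share was 0.621 times the UVC share and 0.756 times the iCLIP share. By chromosome the ratio of UVA to UVC shares was 0.588 on chromosome 18, 0.596 on chromosome 13 and 0.650 on chromosome 4. Chromosome 10, the next in order and outside the choice, was at 0.688. By iCLIP to UVC ratio, chromosomes 13, 18 and 4 ranked 1, 2 and 6 from the lowest of 23, at 0.777, 0.786 and 0.861. The choice did not use the iCLIP list, but it did use the UVC share by which this ratio is divided. These ranks are therefore given as description.

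Counted per gene over the 3 chromosomes together, UVC sites were more numerous and UVA sites fewer than elsewhere. There were 2.93 UVA, 5.43 UVC and 2.90 iCLIP sites per coding gene on chromosomes 4, 13 and 18, against 3.55 UVA, 3.93 UVC and 2.61 iCLIP sites per coding gene on the other 20. On chromosome 18 the numbers were 3.79 UVA and 7.40 UVC sites per gene, and that UVC value was the highest of 23 chromosomes. Chromosome 13 had 2.71 UVA and 5.22 UVC sites per gene, and chromosome 4 had 2.73 UVA and 4.83 UVC sites per gene. Counted per Mb of summed coding-gene length the picture changed. The 3 chromosomes had 30.1 UVA, 55.6 UVC and 29.7 iCLIP sites per Mb of gene, against 57.0 UVA, 63.05 UVC and 41.8 iCLIP sites per Mb elsewhere. On this scale chromosomes 13, 4 and 18 were the 3 lowest of 23 for UVA, at 27.1, 29.6 and 34.5 sites per Mb. For UVC chromosomes 13 and 4 ranked 4 and 5 from the lowest and chromosome 18 ranked 15, at 52.2, 52.4 and 67.3 sites per Mb. Per length of gene both lists were thus lower than elsewhere over the 3 chromosomes together. Both were divided by the same gene numbers and lengths. How UVA and UVC differ on either scale therefore restates the ratio by which the chromosomes were chosen.

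**Figure D1:**
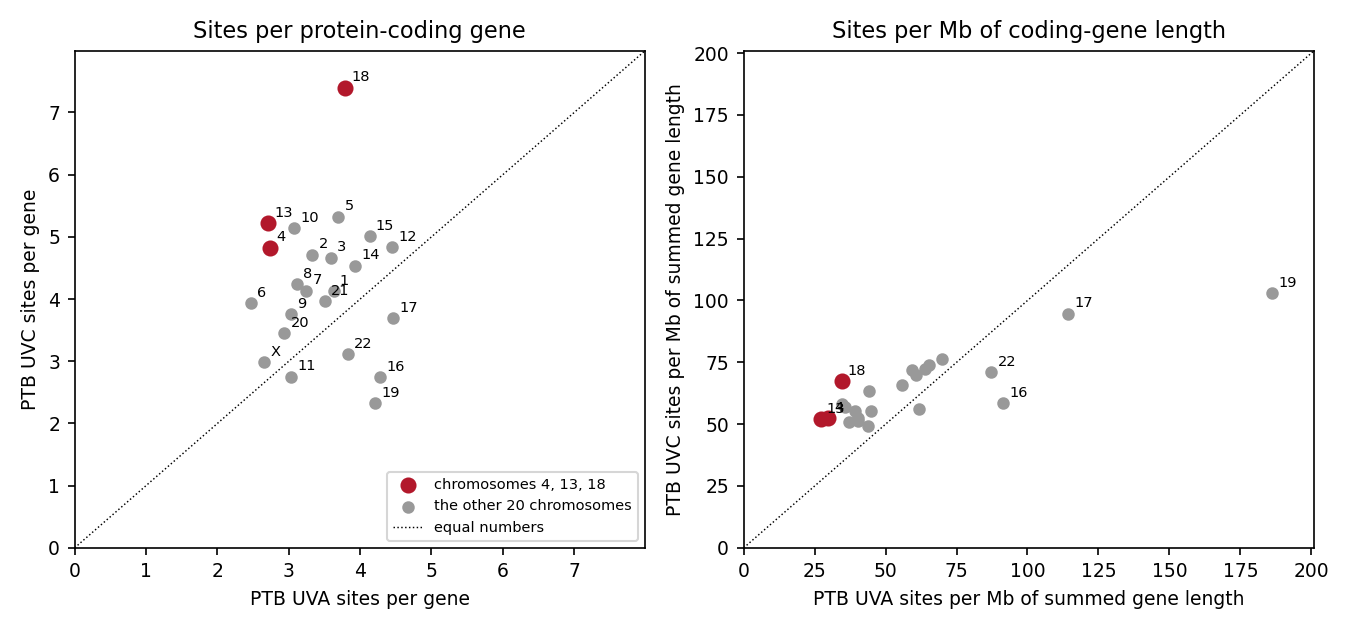
PTB UVA sites (horizontal axis) and PTB UVC sites (vertical axis) per protein-coding gene (left) and per Mb of summed coding-gene length (right), 1 point per chromosome, with chromosomes 4, 13 and 18 in red and a dotted line at equal numbers. Chromosome 18 lies highest for UVC per gene, at 7.40, and on the right the 3 red points lie at the left edge, from 27.1 to 34.5 UVA sites per Mb.

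Pooled over the 3 chromosomes, the medians of width and score lay near those elsewhere, and the chromosomes differed among themselves. Median widths were 37 nt for UVA, 49 nt for UVC and 37 nt for iCLIP sites on chromosomes 4, 13 and 18, against 40, 49 and 39 nt on the other chromosomes. The deposited score rises as the authors' p-value for the peak falls. Peaks deposited with score and p-value both at 0 were set here to a limit of 1000. On the 3 chromosomes these were 138 UVA, 11 UVC and 23 iCLIP peaks, with repeated intervals counted. The score had medians of 78 for UVA, 20 for UVC and 50 for iCLIP sites, against 80, 21 and 46 elsewhere. Scores above 100 were held by 42.5% of UVA, 1.28% of UVC and 22.8% of iCLIP sites on the 3 chromosomes, against 42.9%, 1.84% and 22.6% elsewhere. The median UVA score was 67 on chromosome 4, 92 on chromosome 13 and 98 on chromosome 18, and 36.7%, 48.5% and 48.9% of their UVA sites scored above 100. Chromosome 4 thus lay below the other chromosomes in UVA score, and chromosomes 13 and 18 above them. More UVC than UVA sites were built from several touching or nearby peaks, 10.9% of UVA sites and 44.4% of UVC sites, against 12.8% and 43.6% elsewhere. The UVC sites divided into 3878 on the plus and 3596 on the minus strand, the UVA sites into 2087 and 1953, and the iCLIP sites into 1998 on each.

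A site met another list where both covered at least 1 nt of the same strand. The share of UVA sites that met a UVC site was 12.0% on chromosomes 4, 13 and 18 (486 of 4040, interval 11.0 to 13.1) and 12.6% on the other chromosomes, a difference of -0.586 points with an interval that held 0 (-1.62 to 0.449). In the other direction 6.61% of the UVC sites met a UVA site on the 3 chromosomes (494 of 7474, interval 6.06 to 7.20), against 11.7% elsewhere. The UVC share follows from the number of UVA sites per UVC site, by which the chromosomes were chosen, and nothing is read from it. By chromosome the UVC share was 6.47% on chromosome 4 (5.70 to 7.31), 7.14% on chromosome 13 (5.98 to 8.44) and 6.41% on chromosome 18 (5.37 to 7.57), intervals that overlap.

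The iCLIP list was met by 17.03% of UVA sites (688 of 4040) and by 4.56% of UVC sites (341 of 7474) on the 3 chromosomes, against 19.1% and 6.43% on the others. The differences were -2.04 points for UVA (-3.24 to -0.841) and -1.86 points for UVC (-2.37 to -1.36). Seen from the iCLIP list, 17.1% of its sites on chromosomes 4, 13 and 18 met a UVA site, against 26.0% elsewhere (difference -8.88 points, -10.1 to -7.65). Of the same iCLIP sites 8.41% met a UVC site, against 9.51% elsewhere (difference -1.104 points, -2.00 to -0.205). Shares seen from the iCLIP list rest on the numbers of UVA and UVC sites, by which the chromosomes were chosen. Nothing is read from them. Chromosome 4 had the lowest share of 23 both for UVA sites that met an iCLIP site, at 15.1%, and for UVC sites that did, at 3.96%. Chromosomes 13 and 18 did not share the lower UVA value. They had 18.8% (16.3 to 21.5) and 19.4% (16.98 to 21.9), intervals that held the 19.1% of the other chromosomes. The UVC share was below 6.43% on each of the 3 chromosomes, though the interval of chromosome 13 held 6.43% (4.48 to 6.66).

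Shares by band of score are given as description. Among UVC sites scoring above 100, 36 of 96 met a UVA site on the 3 chromosomes (37.5%, 27.8 to 47.97), against 61.5% elsewhere. Among UVC sites scoring up to 20 the shares were 4.03% and 7.57%. For UVA sites meeting the UVC list the interval of the difference held 0 in each of the 4 bands, and at scores above 100 the shares were 19.7% on the 3 chromosomes and 20.6% elsewhere. The bands were chosen after values had been seen.

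No site of 1 PTB list lay on a site of another PTB list on the opposite strand of these chromosomes. For 4040 UVA sites a count of 0 allows a share of up to 0.0743%, and for 7474 UVC sites up to 0.0401%. Elsewhere 34 UVA sites (0.0515%) lay opposite a UVC site. All overlaps between the PTB lists on the 3 chromosomes were therefore in the same strand.

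Distances to the nearest UVA site also rest on the number of UVA sites, by which the chromosomes were chosen, and are given as description. The median distance from a UVA site to the nearest UVC site of its strand was 1449 nt, against 1396 nt on the other chromosomes. From a UVC site to the nearest UVA site it was 11612 nt, against 4692 nt elsewhere, and from an iCLIP site to the nearest UVA site 3960 nt, against 856 nt. Within 1000 nt, 44.8% of UVA sites had a UVC site and 21.2% of UVC sites had a UVA site on the 3 chromosomes, against 45.5% and 32.3% elsewhere. Within 100000 nt the shares were 92.7% and 83.1%, against 95.2% and 88.0%.

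**Figure D2:**
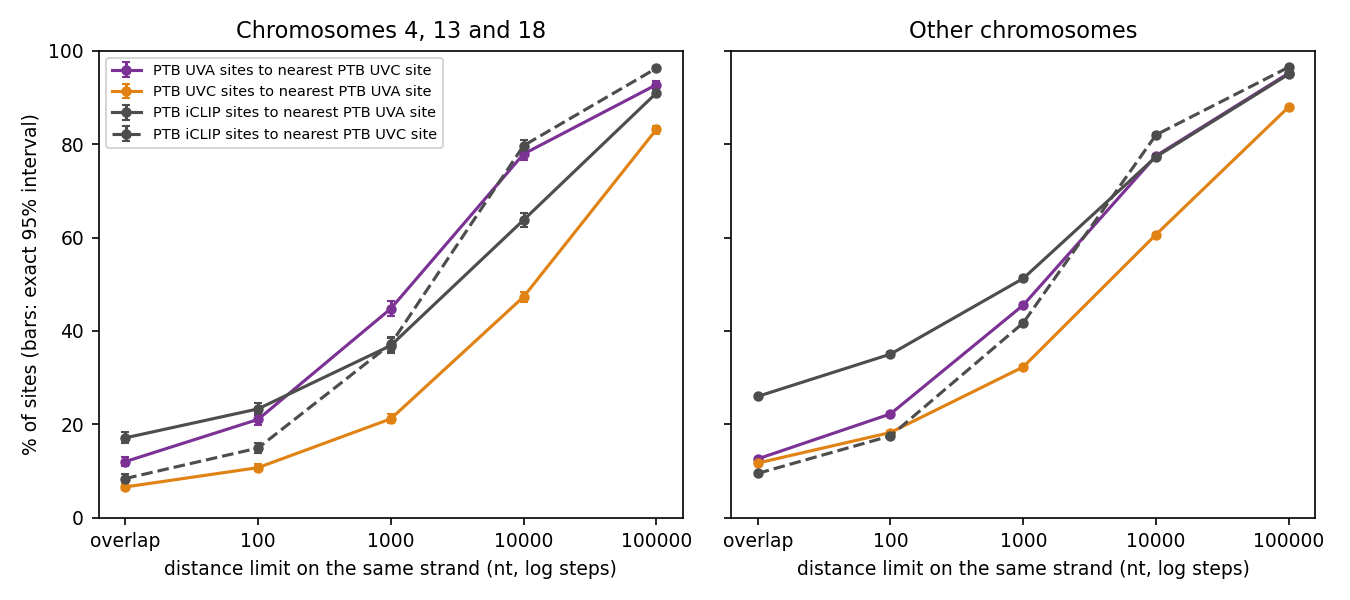
Share of sites (vertical axis, %, with exact 95% intervals) whose nearest site of a second list overlaps it or lies within 100, 1000, 10000 or 100000 nt on its strand (horizontal axis, log steps), for UVA to UVC, UVC to UVA, iCLIP to UVA (solid grey) and iCLIP to UVC (dashed grey), on chromosomes 4, 13 and 18 (left) and the others (right). Within 1000 nt the line from UVC to UVA is at 21.2% on the left and 32.3% on the right, and that from UVA to UVC at 44.8% and 45.5%.

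Within each list the sites on the 3 chromosomes were more widely spaced than elsewhere. The median gap to the next site of the same list and strand was 3293 nt for UVA, 5165 nt for UVC and 3667.5 nt for iCLIP, against 1714, 4537 and 2550.5 nt on the other chromosomes. A gap of at most 200 nt was seen after 21.6% of UVA sites, 7.06% of UVC sites and 21.1% of iCLIP sites. The UVC share was also the lowest of the 3 on the other chromosomes, at 8.33%, against 24.4% for UVA. These gaps lie between merged sites, so peaks with at most 20 nt between them are not counted as pairs. Several peaks had been merged in 44.4% of UVC, 10.9% of UVA and 6.86% of iCLIP sites on the 3 chromosomes. Which list had the most close pairs of peaks was therefore not tested.

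The chromosomes were then cut into 100 kb windows on each strand, of which 1804 held at least 1 site of any list. Windows with all 3 PTB lists numbered 658 (36.5%), against 44.0% of the windows on the other chromosomes. They held 79.7% of the UVA, 63.3% of the UVC and 82.0% of the iCLIP sites. Windows with UVC sites and no other PTB site were the next largest class, with 380 windows (21.1%), against 16.3% elsewhere. They held 1163 UVC sites, or 15.6% of them, against 10.8% elsewhere, with a median of 2 and at most 16 in a window. A further 195 windows (10.8%) held UVC and iCLIP sites without UVA, 169 (9.37%) UVA and UVC sites, 202 (11.2%) UVA sites alone, 58 (3.22%) UVA and iCLIP sites and 122 (6.76%) iCLIP sites alone. In 20 windows there were control sites only.

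**Figure D3:**
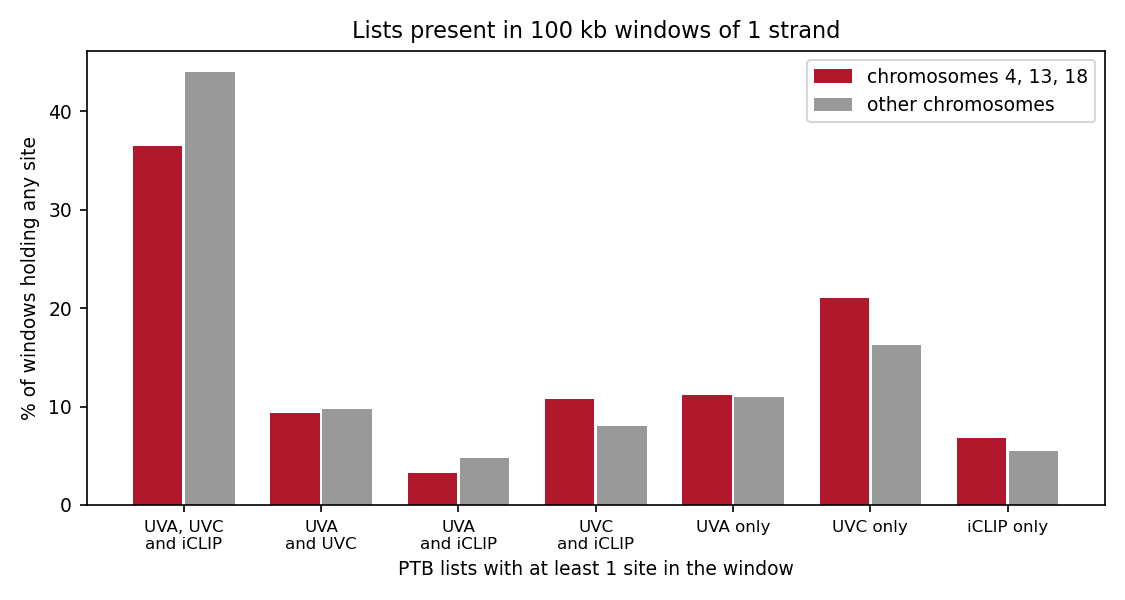
Share of the 100 kb windows of 1 strand that hold any site (vertical axis, %), by which of the PTB lists have a site there (horizontal axis), for chromosomes 4, 13 and 18 (red) and the other chromosomes (grey). Red is lower for windows with all 3 lists (36.5% and 44.0%) and higher for windows with UVC only (21.1% and 16.3%).

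UVC sites reached more windows than the sites of the other lists, as they did elsewhere (13259 windows, against 11817 for UVA and 10578 for iCLIP). UVA sites lay in 1087 windows, UVC sites in 1402 and iCLIP sites in 1033, with 3.72 UVA, 5.33 UVC and 3.87 iCLIP sites per occupied window. Elsewhere there were 5.59 UVA, 5.51 UVC and 4.58 iCLIP sites per occupied window. The UVA density differed most, a value that rests on the choice of the chromosomes. At least 10 sites were found in 88 windows for UVA and in 213 for UVC, and 32 windows reached 10 in both. Windows with at least 10 sites held 31.1% of the UVA sites, against 53.1% elsewhere, and 41.4% of the UVC sites, against 46.2%. Of the 1662 windows with UVA or UVC sites, UVA sites were more numerous in 494 (29.7%) and UVC sites in 1062 (63.9%), against 41.9% and 51.1% elsewhere. At least 10 UVC sites and no UVA site were found in 34 of the 1662 windows, against 273 of 15944 elsewhere. At least 10 UVA sites and no UVC site were found in 3, against 80 elsewhere. Windows with at least 10 UVC sites numbered 2303 elsewhere, and those with at least 10 UVA sites 2164. These counts also rest on the choice of the chromosomes and are given as description.

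The 5 windows with the most UVA sites held from 24 to 35 of them, and UVC and iCLIP sites were present in each. The first, on the minus strand of chromosome 4 from 100800001 to 100900000, held 35 UVA, 21 UVC and 17 iCLIP sites and no control site. The second, on the plus strand of chromosome 4 from 1800001 to 1900000, held 30 UVA, 7 UVC and 16 iCLIP sites, and was also the window with the largest lead of UVA over UVC, at 23 sites. On the plus strand of chromosome 18 the window from 9900001 to 10000000 held 29 UVA, 21 UVC and 17 iCLIP sites, with 1 site in each control. On chromosome 4, positions 41900001 to 42000000 of the plus strand held 25 UVA, 11 UVC and 7 iCLIP sites. On chromosome 18, positions 54200001 to 54300000 of the minus strand held 24 UVA, 17 UVC and 13 iCLIP sites.

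In the 5 windows with the most UVC sites, UVA sites numbered from 1 to 16 and UVC sites led in each. On the plus strand of chromosome 4 the window from 113800001 to 113900000 held 1 UVA, 34 UVC and 3 iCLIP sites, with 1 site in each control. The window of chromosome 13 from 115000001 to 115100000, at the far end of its plus strand, also held 34 UVC sites, but with 16 UVA and 14 iCLIP sites, of which 3 UVC sites met both other lists. On the minus strand of chromosome 18 from 14100001 to 14200000 there were 8 UVA, 31 UVC and 7 iCLIP sites and 1 site without UV. Chromosome 13 had 2 more: on its plus strand the window from 33200001 to 33300000 held 8 UVA, 26 UVC and 3 iCLIP sites. On its minus strand the window from 46500001 to 46600000 held 5 UVA, 25 UVC and 9 iCLIP sites. The opposite strand held no PTB site in 4 of these 5 windows, the exception being that of chromosome 18, with 6 UVA, 2 UVC and 2 iCLIP sites there.

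The windows from 113800001 and from 14100001 had leads of UVC over UVA of 33 and 23 sites. The other 3 of the 5 with the largest lead of UVC had leads of 24, 21 and 21. Among them was chromosome 13 from 77800001 to 77900000 (minus), with 1 UVA, 25 UVC and 6 iCLIP sites. On chromosome 4 from 17900001 to 18000000 (minus) there were no UVA, 21 UVC and 9 iCLIP sites, and from 95500001 to 95600000 (plus) 1 UVA, 22 UVC and 5 iCLIP sites. The 5 largest leads of UVA over UVC were from 15 to 23 sites, and those of UVC over UVA from 21 to 33. On chromosome 13 from 41700001 to 41800000 (minus) there were 19 UVA, 2 UVC and no iCLIP sites. On chromosome 18 from 77900001 to 78000000 (plus) there were 19 UVA, 3 UVC and 7 iCLIP sites. Chromosome 4 had 17 UVA, 2 UVC and 11 iCLIP sites from 3500001 to 3600000 (minus).

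Windows with the most iCLIP sites lay on chromosome 4 in 4 of 5 cases, and UVA led UVC in 3 of the 5. The first, from 99800001 to 99900000 on the minus strand, held 19 UVA, 7 UVC and 23 iCLIP sites, and the third, from 1200001 to 1300000 on the plus strand, 19 UVA, 2 UVC and 21 iCLIP sites. The second, from 56300001 to 56400000 on the minus strand, held 4 UVA, 11 UVC and 22 iCLIP sites, and the fourth, from 120100001 to 120200000 on the plus strand, 8 UVA, 17 UVC and 20 iCLIP sites. The fifth, on chromosome 18 from 55100001 to 55200000 (plus), held 20 UVA, 8 UVC and 19 iCLIP sites.

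Long transcripts were approached as stretches: runs of consecutive windows of 1 strand that each held at least 3 UVA, UVC and iCLIP sites together. A stretch can hold several neighbouring genes, and a gene with few sites can be cut. The 3 chromosomes had 600 stretches, of which 277 were 1 window long, 258 were 2 or 3 windows long and 65 were 4 or more windows long. The longest covered 1200 kb. The number of UVA sites per UVC site was 0.792 in stretches of 1 window, 0.478 in those of 2 or 3 windows and 0.440 in those of 4 or more. On the other chromosomes these values were 1.096, 0.785 and 0.958. UVC sites outnumbered UVA sites in 55 of the 65 longest stretches (84.6%), against 56.5% of 921 such stretches elsewhere. In stretches of 6 or more windows the value was 0.503 over 15 stretches, against 1.07 elsewhere. The length classes were chosen after values had been seen. The same site counts set the length of a stretch, and UVC sites alone can lengthen it. The number of UVA sites per UVC site is also the value by which the chromosomes were chosen. These values are given as description, and nothing is read from their order by length.

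The 10 stretches with the most sites fell into 2 kinds. In 4 of them UVA sites were the more numerous, and 3 of these lay near the start of chromosome 4. The plus strand from 2400001 to 3400000 held 85 UVA, 65 UVC and 52 iCLIP sites and no control site. The plus strand from 1700001 to 2100000 held 53 UVA, 33 UVC and 33 iCLIP sites. The minus strand from 1600001 to 2500000 held 44 UVA, 21 UVC and 42 iCLIP sites, with 53 UVA and 35 UVC sites on the other strand of the same windows. The fourth lay near the end of chromosome 18, from 77700001 to 78000000 (plus), with 39 UVA, 27 UVC and 28 iCLIP sites.

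In the other 6 stretches UVC sites were the more numerous. The longest of all, on chromosome 4 from 83200001 to 84400000 (minus), held 62 UVA, 83 UVC and 45 iCLIP sites, with 6 sites without UV and 1 YFP site. On chromosome 4 from 71400001 to 71900000 (plus) there were 30 UVA, 50 UVC and 14 iCLIP sites. Chromosome 13 from 77400001 to 77900000 (minus) held 13 UVA, 75 UVC and 15 iCLIP sites. Chromosome 18 held 3 such stretches. They had 23 UVA, 43 UVC and 36 iCLIP sites from 59900001 to 60600000 (plus), 18, 59 and 24 from 9100001 to 9600000 (plus), and 4, 67 and 27 from 52800001 to 53300000 (minus). The stretches from 59900001 and from 52800001 had no PTB site on the other strand of the same windows.

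**Figure D4:**
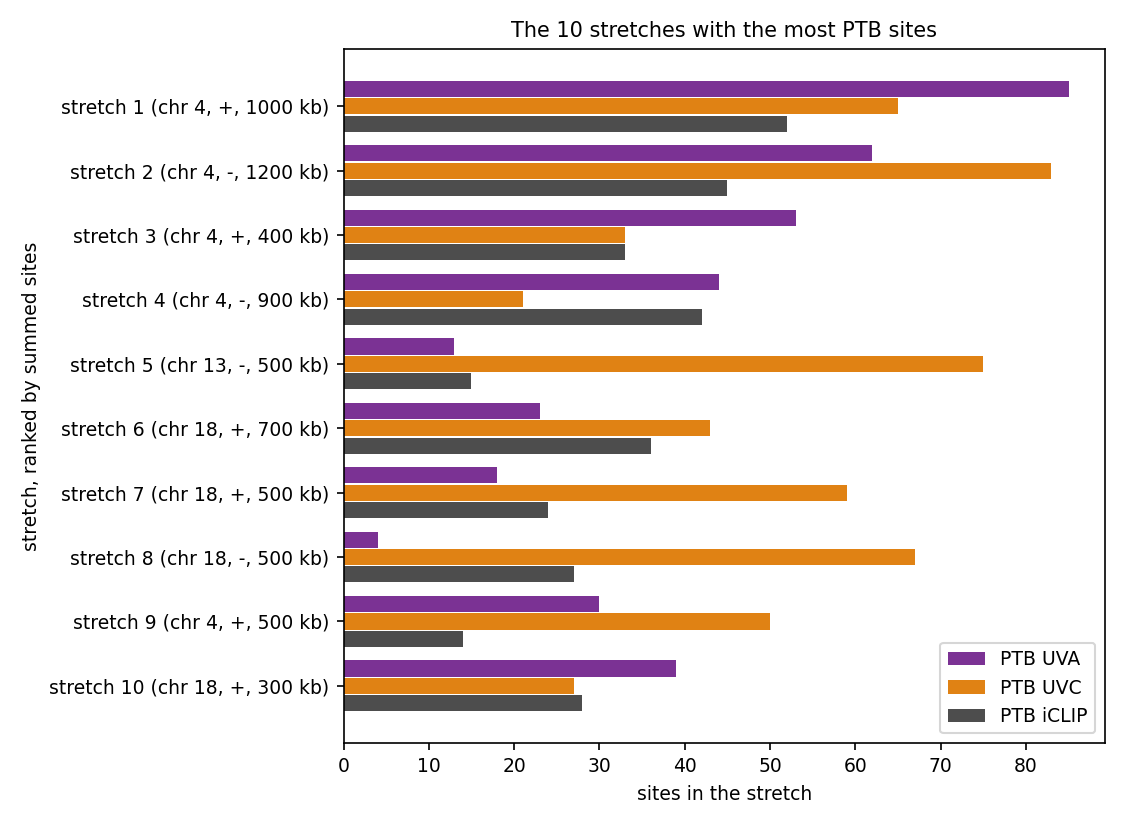
Number of PTB UVA, UVC and iCLIP sites (horizontal axis) in each of the 10 stretches with the most sites (vertical axis, ranked, with chromosome, strand and length), from single pooled lists without error bars. UVA is longest in stretches 1, 3, 4 and 10, and UVC is longest in the other 6, with 67 UVC and 4 UVA sites in stretch 8.

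Each stretch was divided into 5 equal parts in the direction of the RNA. On chromosome 18 from 33700001 to 34700000 (plus), named here after its values had been seen, all 16 UVA sites and 13 of 15 iCLIP sites lay in the first part, from 33726586 to 33841786 for UVA. The 60 UVC sites were spread over the whole stretch, with 8, 14, 6, 18 and 14 in the parts from 5′ to 3′, and 8 of its 10 windows had UVC sites and no UVA site. On chromosome 4 from 113700001 to 114300000 (plus), chosen in the same way, both UVA sites and all 7 iCLIP sites lay in the first 2 parts. The 72 UVC sites reached through all 5, with 4, 39, 14, 6 and 9. None of these 72 UVC sites met a UVA or an iCLIP site.

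The stretch of chromosome 18 from 52800001 to 53300000 (minus) had its highest counts at the 5′ end in both the UVC and the iCLIP list. UVC sites numbered 20, 14, 13, 12 and 8 from 5′ to 3′, and iCLIP sites 14, 7, 3, 3 and 0, beside 4 UVA sites in all. Only 1 of the 67 UVC sites met a UVA site and none met an iCLIP site, and no control site was present. On chromosome 13 from 77400001 to 77900000 (minus) UVC sites numbered 25, 18, 17, 8 and 7, and iCLIP sites 6, 2, 0, 7 and 0. There 4 of 75 UVC sites met an iCLIP site and none met a UVA site. On chromosome 4 from 95100001 to 95600000 (plus) the order ran the other way for UVC, with 12, 4, 3, 15 and 22 sites, beside 3 UVA and 18 iCLIP sites. On chromosome 4 from 62000001 to 62900000 (plus), 1 of the 5 longest stretches, there were 4 UVA, 37 UVC and no iCLIP sites.

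In the 2 largest stretches where UVA led, the lists had their highest counts in the same part. On chromosome 4 from 2400001 to 3400000 the middle part held 42 UVA, 18 UVC and 26 iCLIP sites, the most of any part in each list. From 1700001 to 2100000 (plus) the middle part held 30 UVA, 17 UVC and 25 iCLIP sites, again the most in each. The 5 stretches with the largest lead of UVA were these 2, that from 1600001 and 2 more, named after their values had been seen. The stretch from 1600001 had its most UVA and iCLIP sites in the second part, at 15 and 13. Its UVC sites numbered 7 there and 7 in the last part. The minus strand of chromosome 4 from 600001 to 1000000 held 31 UVA, 7 UVC and 24 iCLIP sites, and the second part held 23, 4 and 18 of them, the most in each list. On chromosome 18 from 32800001 to 33100000 (minus) there were 36 UVA, 14 UVC and 21 iCLIP sites, and the fourth part held 30, 9 and 11 of them, again the most in each. In the UVC-led stretch from 83200001 to 84400000 all 3 lists were low in the second part, with 3 UVA, 3 UVC and no iCLIP sites, and the fourth held 1 UVA, 12 UVC and no iCLIP sites. Its last part held the most UVA and UVC sites, at 26 and 29, and its middle part the most iCLIP sites, at 22. UVA sites were tightly grouped in this stretch, with a median gap of 902 nt, and UVC sites had one of 4432.5 nt. Over all 65 stretches of 4 or more windows the 5′-most part held 17.8% of UVA, 17.6% of UVC and 21.2% of iCLIP sites, and the 3′-most part 23.2%, 16.3% and 13.7%. In the 921 such stretches elsewhere the 5′-most part held 18.2% of UVA, 18.2% of UVC and 18.6% of iCLIP sites, and the 3′-most part 19.4%, 17.2% and 17.7%.

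**Figure D5:**
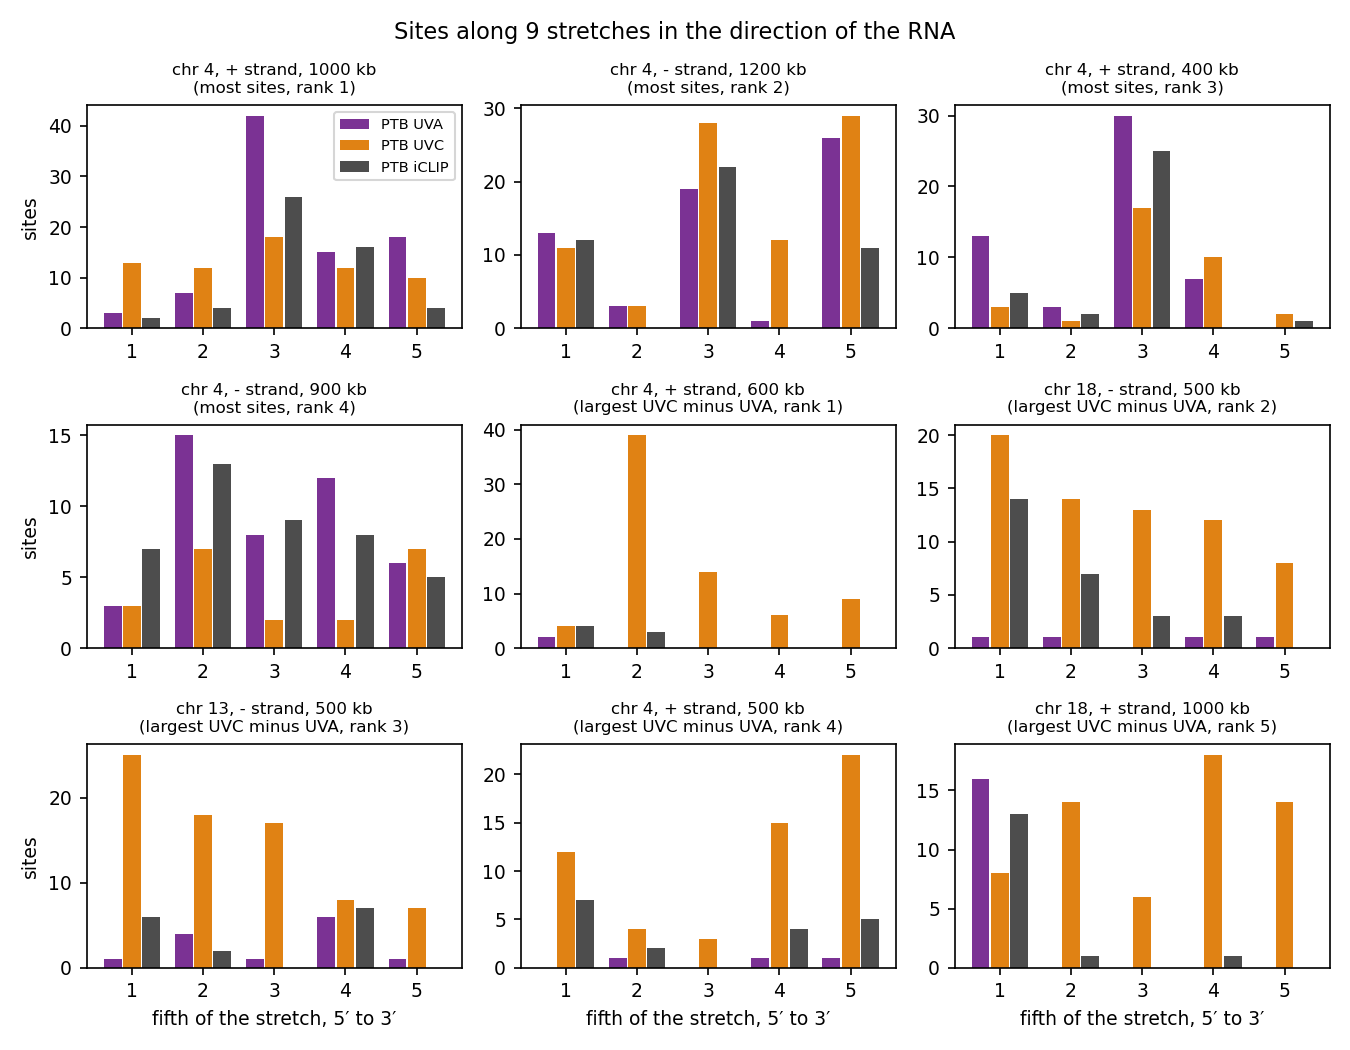
Number of UVA, UVC and iCLIP sites (vertical axis) in 5 equal parts from 5′ to 3′ (horizontal axis) of 9 stretches: the 4 with the most sites and the 5 with the largest lead of UVC over UVA. In the last panel all 16 UVA sites lie in the first part while the 60 UVC sites run through all 5.

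Sites found in all 3 PTB lists and in no control numbered 145 UVC sites (1.94%, 1.64 to 2.28), against 3.57% on the other chromosomes (difference -1.63 points, -1.97 to -1.29). This share requires a UVA site, so it too rests on the ratio by which the chromosomes were chosen. Nothing is read from its difference. The 145 sites lay in 116 windows, 56 sites on chromosome 4, 48 on chromosome 13 and 41 on chromosome 18. Their median width was 53 nt and their median UVC score 29, against 48 nt and 19 for the 6791 UVC sites (90.9%) that met neither list. No window held more than 3. The 5 named windows with 3 began on chromosome 13 with that from 39500001 to 39600000 (minus), then from 98600001 to 98700000 (plus), from 107200001 to 107300000 (minus) and from 115000001 to 115100000 (plus), and on chromosome 18 from 9900001 to 10000000 (plus).

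The widest shared sites show how the 3 methods outlined the same place. On chromosome 13 a UVC site from 39586968 to 39587167 (minus, 200 nt) lay over a UVA site of 37 nt and within an iCLIP site of 457 nt, from 39586961 to 39587417. The UVC site from 41645169 to 41645368 (plus, 200 nt) met a UVA site of 202 nt with a score of 874 and an iCLIP site of 121 nt. On chromosome 18 the UVC site from 3278060 to 3278236 (plus, 177 nt) met a UVA site at the score limit of 1000, from 3277970 to 3278169, and an iCLIP site from 3278004 to 3278121. On chromosome 4 the UVC site from 131949 to 132084 (plus) met a UVA site at the limit, from 131992 to 132158, and an iCLIP site from 132003 to 132110. The UVC site from 20713890 to 20714020 (plus) met a UVA site from 20713881 to 20714028. The other 5 of the 10 widest lay on chromosome 18 from 43470602 (minus), on chromosome 13 from 96252775 (minus), 52607578 (plus) and 51937065 (minus), and on chromosome 4 from 141461964 (plus), with widths of 121 to 175 nt. In these 10 the UVC score was 30 to 101, the UVA score 78 to 1000 and the iCLIP score 20 to 854.

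Named by score and then width, top peaks of the PTB lists fell in different places, apart from a place shared by UVC and iCLIP. Of the 5 first UVA peaks, of 132 at the limit, 3 met an iCLIP peak and no UVC site: a pair of adjoining peaks on chromosome 18 from 47796705 to 47796975 (minus) and a peak from 32918545 to 32918645 (minus). On chromosome 4 the peak from 71895750 to 71895860 (plus) met a UVC site only, and that from 6643524 to 6643622 (plus) met both lists. The UVC list had 6 peaks at the limit, and 4 of the 5 named lay on sites of both controls. These were on chromosome 13 from 27829537 to 27829636 (plus) and, as 3 adjoining peaks, from 46948613 to 46948665 (minus). The 3 adjoining peaks also met a UVA and an iCLIP site. The remaining one, on chromosome 4 from 20308808 to 20308870 (plus), met the first-ranked iCLIP peak, from 20308839 to 20308926, and no control. The other named iCLIP peaks, on chromosome 4 from 82515388 to 82515441 (minus) and on chromosome 13 from 41634861 to 41634904 (minus), met a UVA site and no UVC site.

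Control sites were few. Of the UVA sites 28 (0.693%, 0.461 to 1.00) and of the UVC sites 39 (0.522%, 0.371 to 0.713) lay on a control peak, against 0.770% and 0.810% on the other chromosomes. The difference was -0.289 points for UVC (-0.464 to -0.113) and held 0 for UVA (-0.342 to 0.187). Shares of control sites met by UVA or UVC sites rest on the numbers of those sites, by which the chromosomes were chosen. They are given as description. UVA sites lay on 8 of 91 YFP sites (8.79%, 3.87 to 16.6), against 22.5% elsewhere (difference -13.8 points, -20.1 to -7.38). UVC sites lay on 17 of 91 YFP sites (18.7%, 11.3 to 28.2), against 25.6%, a difference whose interval held 0 (-15.4 to 1.56). Of the 201 sites without UV 23 lay on a UVC site (11.4%, 7.39 to 16.7), against 18.3% elsewhere (difference -6.87 points, -11.6 to -2.18). The controls shared 2 sites, both on chromosome 13: from 27829538 to 27829588 (plus), where UVC also had a site, and from 46948613 to 46948665 (minus), where all 5 lists did. The first-ranked YFP peak, from 27829538 to 27829664 with a score of 132, and the first-ranked peak without UV, from 46948613 to 46948665, marked the same places. The merged site without UV at the second place had a score of 118. No window held more than 4 control sites. The window of chromosome 18 from 37300001 to 37400000 (minus) held 4 YFP sites and no site of any other list.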

How the data were processed

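The members and lists were chosen with earlier results of these data known. Bowtie 1.1.2 is named in the submitters' processing notes, as are the genomes hg19 and dm3. How peaks were called, how replicates were pooled and what dm3 served for is not given in the sources used here. Positions were read as hg19. The deposited peak lists give a start, an end and a strand, a score and a p-value per peak, both the authors' own. The deposited p-value was never above 0.05, and the score equalled 10 times its negative log10, rounded down, for 97.2% of UVA, 99.9% of UVC and 98.3% of iCLIP peaks of chromosomes 4, 13 and 18 with a printed p-value above 0. Peaks with both at 0 were taken as lying at the limit of 1000.

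Peaks of a list within 20 nt on 1 strand were merged, and a site was put in the 100 kb window of its midpoint. Shares carry exact Clopper-Pearson intervals and differences of shares normal intervals, at 95%. The unit of replication is the list, 1 per group, so no p-value was computed. Merging and overlaps equalled those of bedtools 2.31.1 for 5 of 5 lists and 20 of 20 ordered pairs, and were tested on simulated data. The windows named are the 5 with the most sites of each PTB list, shared sites or control sites and the largest lead of UVA or UVC. The 10 stretches with the most sites, the 5 highest-scoring peaks of each list and the 10 widest shared sites were also named. Ties went by position, and for the peaks by width first. Stretches with the largest lead of UVA or UVC and the longest stretches were added. Scripts ran in Python 3.11.15, intervals came from scipy 1.17.1, tables from pandas 2.3.3 and numpy 2.4.6, and figures from matplotlib 3.10.9. Alternatives changed the merging, the score minimum, the overlap, the strand, the windows and the chromosomes. Sequence letters of sites were not analysed here.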

Additional observations from a re-analysis of the deposited data

How the results depend on the processing

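Each of 6 results was recomputed under 7 to 10 alternatives, 53 values in all, of which 35 stayed within the interval or, for the shared sites, within 1.5 times. The ratio of UVA to UVC shares stayed below 1 in each, at 0.592 without chromosome 4 and 0.839 (interval 0.690 to 1.02, which holds 1) at scores of at least 100, where 99 UVC sites were left. Keeping scores of at least 100 lowered the UVA share on UVC sites to 1.91% and on iCLIP sites to 11.6%, and gave UVC shares of 14.1% on iCLIP sites and 18.2% in windows of their own, with 8 sites in all 3 lists. Requiring at least 50% of the site to be covered gave 6.83% (UVA on UVC), 11.3% (UVA on iCLIP), 2.62% (UVC on iCLIP) and 55 shared sites. Without chromosome 4 the UVA share on iCLIP was 19.1%, the UVC share on iCLIP 5.16%, the UVC share in windows of their own 14.2% and the shared sites 89. That window share was 16.8% with peaks merged at 0 nt, 23.8% in 50 kb windows and 9.23% in 200 kb windows. Merging within 50 nt, leaving out sites on control peaks, chromosome 13 or chromosome 18, ignoring strand and moving the windows by 50 kb moved none beyond those bounds. No paired analysis was possible because each group has 1 pooled list, and no replicate could be left out for the same reason. The depth behind each list is unknown, so lists cannot be compared for sensitivity.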
